A study of Mus musculus with 12 samples.

Results

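The genes described here write, remove or read methylation of cytosine in DNA. They are the maintenance methyltransferase Dnmt1 with its cofactor Uhrf1, the de novo methyltransferases Dnmt3a and Dnmt3b, the dioxygenases Tet1, Tet2 and Tet3, and the methyl-CpG-binding domain proteins Mbd2 and Mbd3. Members were all probe sets that the platform annotation assigns to 1 of these 9 genes and to no other, whatever their values, which gave 22 of the 45101 probe sets on the array. Dnmt3a had 5 probe sets, Tet1 had 4, Dnmt1 had 3, Dnmt3b, Uhrf1, Tet2 and Mbd2 had 2 each, and Tet3 and Mbd3 had 1 each. Of the 22 probe sets, 18 had a log2 value over 4 on at least 3 arrays and were tested, and these covered 8 of the 9 genes. The 4 untested ones were 1 of the 2 probe sets of Dnmt3b, 2 of the 4 of Tet1 and the only probe set of Tet3.

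RNA was measured on 12 Affymetrix arrays, 3 in each of 4 groups of 129/Sv mice. The groups were dorsal cerebral cortex of adult Qkf gt/gt males aged 155, 112 and 99 days, the same tissue of adult wild-type males aged 155, 112 and 101 days, dorsal telencephalon of Qkf gt/gt embryos at embryonic stage E12.5, and dorsal telencephalon of wild-type embryos of that stage. Kat6b, listed as Qkf in the labels, codes for a protein that acetylates histones, and in the mutants its 2 alleles carry a gene trap that is not limited to a cell type. The arrays asked which genes depend on Kat6b in each tissue, and the same design sets the adult tissue against the embryonic one within each genotype. The labels give the embryos' parents but not their sex, and they do not say whether an embryonic array held 1 embryo.

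In mammals, DNA methylation is laid down mostly at CG dinucleotides. DNMT1, guided by UHRF1 to newly replicated DNA, copies the pattern onto the daughter strand, while DNMT3A and DNMT3B methylate sites that were unmethylated before. TET enzymes oxidise 5-methylcytosine to 5-hydroxymethylcytosine, which is abundant in neurons, and thereby open a route to demethylation. MBD2 binds methylated CG sites, whereas mammalian MBD3 has little preference for them. Each of the pair is an alternative subunit of the nucleosome remodelling and deacetylase complex, NuRD. Dividing progenitors line the E12.5 telencephalon, and the adult cortex consists mostly of cells that have left the cell cycle.

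Promoter sequences were printed for Dnmt1 and Uhrf1, the maintenance pair. Among the member windows, only windows of these genes held a recognition motif of the E2F type. E2F is the family of factors that drives many genes of DNA replication. Each window ran from 250 bases before to 50 bases after an annotated start in RefSeq on GRCm38.p6. The members had 13 such windows in 8 genes, and Mbd2 had none. The motif was searched as TTTCCCGC, TTTCGCGC, TTTGCCGC or TTTGGCGC on both strands, and the matches printed do not overlap. Capitals mark the matches, and sequences run 5′ to 3′ on the gene's strand. The printed Dnmt1 window lay at chr9:20952574-20952873 on the minus strand, and the printed Uhrf1 window at chr17:56304063-56304362 on the plus strand. Both genes had further annotated starts, whose windows held no match and are not printed.
Dnmt1: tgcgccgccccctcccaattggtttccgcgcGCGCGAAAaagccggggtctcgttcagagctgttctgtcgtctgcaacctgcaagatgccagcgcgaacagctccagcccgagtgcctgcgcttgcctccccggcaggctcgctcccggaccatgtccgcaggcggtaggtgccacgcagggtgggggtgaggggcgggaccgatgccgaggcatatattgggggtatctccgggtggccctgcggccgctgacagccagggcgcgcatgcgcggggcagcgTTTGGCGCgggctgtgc
Uhrf1: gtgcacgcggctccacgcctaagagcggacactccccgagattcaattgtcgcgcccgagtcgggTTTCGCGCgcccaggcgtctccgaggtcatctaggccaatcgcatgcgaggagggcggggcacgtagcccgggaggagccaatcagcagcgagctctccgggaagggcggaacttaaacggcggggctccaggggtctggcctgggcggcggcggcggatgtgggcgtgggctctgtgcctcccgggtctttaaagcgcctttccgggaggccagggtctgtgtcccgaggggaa

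With the annotated start as position 1 and no position 0, the Dnmt1 matches began at positions -219 and 34 and the Uhrf1 match at position -185. The motif occurred in 2 of the 13 member windows (15.4%) and in 744 of all 32851 windows (2.3%). Of 26 genes listed for DNA replication and proliferation, 21 had a window, and 9 of these (42.9%) held the motif in at least 1 window, against 704 of all 27025 genes (2.6%). These matches are letters in a window and no measure of binding. Each of the printed windows also held 33 CG dinucleotides. Over the 13 member windows the number of CG dinucleotides ran from 2 to 57 with a median of 22, against a median of 7 over all windows, and the window with 57 belonged to Tet2. Each form of the motif itself contains CG, so the shares over all windows and genes are not matched for CG content. Its part in the motif shares was not tested.

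Values are log2 expression after GCRMA, a method that models background from probe sequence, and the lowest value on every array was 2.19, called the floor below. Each array had 27.1% to 28.4% of its probe sets at the floor, and array medians ran from 3.64 to 3.74. Actin control probes at the 3′ end exceeded those at the 5′ end by 1.91 on adult mutant 1, by 1.47 on adult mutant 2 and by 1.06 to 1.13 on the other 4 adult arrays, on the log2 scale. In the embryos this gap was 0.71 to 1.02. Mutant 1 and wild type 1 among the embryos came from a cross of their own, and by the array labels embryonic mutant 1 belonged to another array set than the other embryos. Mean levels of 5 markers of ventral telencephalon, which adjoins the dissected tissue, were 7.43 on embryonic mutant 1 and 7.998 on embryonic wild type 1, against 3.30 to 5.22 on the other embryos. All adult arrays formed a further set, so that stage, tissue and array set cannot be told apart. The trapped gene checked the genotype labels. The leading probe set of Kat6b stood at 7.25, 7.17 and 6.92 in adult mutants against 9.68, 9.35 and 9.72 in adult wild types, and at 6.22, 7.24 and 7.72 in mutant embryos against 11.28, 11.40 and 11.42 in wild-type embryos. It was lower in adult mutants (log2 difference -2.47, SE 0.30, adjusted p = 0.0242) and in mutant embryos (log2 difference -4.31, SE 0.30, adjusted p = 0.000184). A second Kat6b probe set was lower in mutant embryos (log2 difference -2.82, SE 0.16, adjusted p = 3.86e-05) and lay between 2.19 and 2.87 on the adult arrays, and the third lay at the floor on all 12 arrays.

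By their leading probe sets, 6 of the 8 tested genes were lower in adult cortex than in E12.5 telencephalon in both genotypes. Of these, Uhrf1 and Dnmt3b lay at or near the floor in adults, Dnmt1 and Tet1 were several-fold lower, and Dnmt3a and Mbd3 were lower by smaller amounts. Tet2 was lower in wild types by a small amount and did not pass in mutants, and the leading probe set of Mbd2 was higher in both genotypes. In mutants, 15 of 18 probe sets were lower in adults and 1 was higher at an adjusted p under 0.05, and in wild types 16 were lower and 1 was higher. Over all 20292 tested probe sets, 43.0% were lower and 36.5% higher in mutant adults than in mutant embryos, and 43.5% were lower and 35.7% higher in wild-type adults than in wild-type embryos. The median log2 difference of the 18 probe sets was -2.18 in mutants and -2.10 in wild types, against -0.13 and -0.14 over all tested probe sets. Both probe sets of Uhrf1, Dnmt3b 1449052_a_at and Dnmt3a 1423064_at passed the filter only through the embryos. A lower adult value was therefore close to fixed for them. The counts and medians given here include them, and they enter each gene by all its tested probe sets. Each probe set called in a genotype had adult and embryonic arrays that did not overlap in that genotype, and no other member had. The share of all tested probe sets with such a gap between stages was not computed, so this only describes the members. These are bulk tissues, in which fewer cells of a type and less RNA per cell cannot be told apart.

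**Figure D1:**
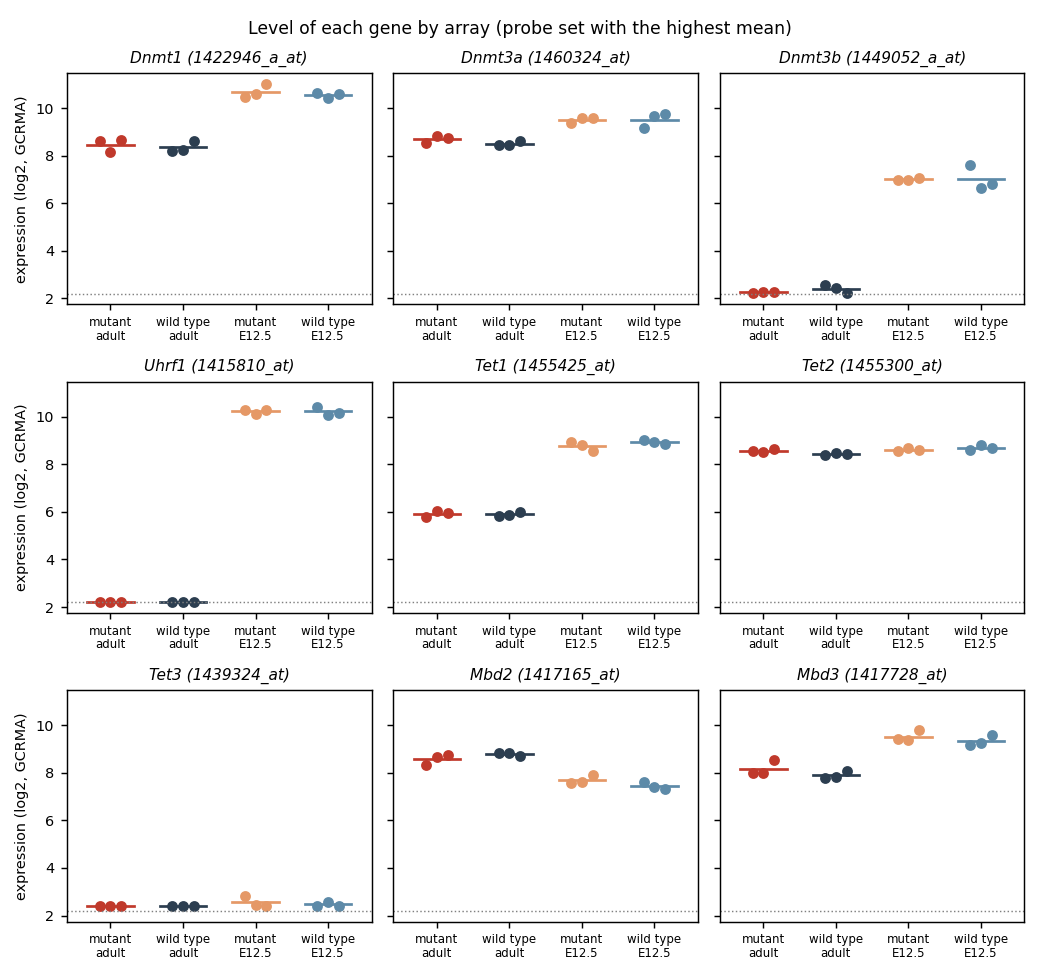
Log2 expression (y axis, GCRMA values) of each of the 9 genes by its probe set with the highest mean, in adult mutants, adult wild types, mutant embryos and wild-type embryos (x axis); points are arrays, bars are group means of 3 arrays and the dotted line is the floor of 2.19. Uhrf1 lies on the floor on all 6 adult arrays and between 10.07 and 10.41 in embryos, whereas Tet2 stays between 8.39 and 8.80 on all 12 arrays.

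Of the maintenance pair, Uhrf1 showed the widest gap among the members. Its leading probe set (1415810_at) stood at 2.19 on all 3 adult mutant and all 3 adult wild-type arrays, against 10.28, 10.13 and 10.26 in mutant embryos and 10.41, 10.07 and 10.15 in wild-type embryos. The log2 difference was -8.03 in mutants (SE 0.10, adjusted p = 1.69e-13) and -8.02 in wild types (SE 0.10, adjusted p = 1.92e-13). The fit shares its estimate of spread over all groups, and the adult arrays, all at the floor, add none. These standard errors and p-values may therefore be too small. No fold is given, because the adult value is the floor of the scale and the size of the change is uncertain. The second probe set (1415811_at) was also at 2.19 on every adult array, and stood at 8.29, 8.10 and 8.59 in mutant embryos and 8.26, 7.87 and 8.52 in wild-type embryos. Both probe sets therefore read alike: no adult signal above the floor and a clear signal in every embryo.

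Dnmt1, the copying enzyme itself, remained well above the floor in adults. Its leading probe set (1422946_a_at) read 8.60, 8.13 and 8.66 in adult mutants against 10.46, 10.57 and 11.02 in mutant embryos, and 8.21, 8.23 and 8.63 in adult wild types against 10.61, 10.41 and 10.59 in wild-type embryos. Adults were 4.66-fold lower in mutants (log2 difference -2.22, SE 0.19, adjusted p = 5.63e-07) and 4.54-fold lower in wild types (log2 difference -2.18, SE 0.19, adjusted p = 6.61e-07). The probe set 1435122_x_at gave -2.63 in mutants and -2.83 in wild types, and 1447877_x_at gave -3.62 and -3.88. The suffix of the last pair marks probes that may also match other transcripts. Thus all 3 probe sets were lower in adults, by amounts that differed between probe sets by more than their standard errors of 0.09 to 0.19.

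Of the de novo enzymes, Dnmt3a stayed expressed in adult cortex and Dnmt3b did not rise far above the floor there. The leading Dnmt3a probe set (1460324_at) read 8.55, 8.81 and 8.76 in adult mutants against 9.38, 9.59 and 9.58 in mutant embryos, and 8.46, 8.44 and 8.61 in adult wild types against 9.14, 9.68 and 9.73 in wild-type embryos. It was 1.76-fold lower in mutant adults (log2 difference -0.81, SE 0.16, adjusted p = 0.000517) and 2.02-fold lower in wild-type adults (log2 difference -1.02, SE 0.16, adjusted p = 9.08e-05). Dnmt3a was the member whose probe sets differed most in size: 1423063_at gave -0.82 in mutants and -0.95 in wild types, 1423065_at gave -0.91 and -1.72, 1423066_at gave -2.46 and -2.47, and 1423064_at gave -3.55 and -3.51. All 5 had the same sign and passed the test in both genotypes. For 1423064_at, which passed the filter only through the embryos, this was close to fixed. It read 3.48 to 3.59 on the adult arrays, against 6.54 to 7.74 in the embryos. The annotation used here does not say which part of the transcript each probe set reads.

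Dnmt3b (1449052_a_at) read 2.23, 2.28 and 2.28 in adult mutants against 6.967, 6.996 and 7.05 in mutant embryos, and 2.56, 2.45 and 2.23 in adult wild types against 7.598, 6.66 and 6.79 in wild-type embryos. The log2 difference was -4.74 in mutants (SE 0.20, adjusted p = 1.62e-09) and -4.60 in wild types (SE 0.20, adjusted p = 2.12e-09). Since the adult values lie within 0.4 of the floor, its size is uncertain. The other Dnmt3b probe set (1418351_a_at) lay between 2.19 and 2.36 on all 12 arrays. A signal for Dnmt3b thus came from 1 of its 2 probe sets, in embryos.

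The 3 TET genes, which oxidise methylcytosine, read differently. Tet1 (1455425_at) stood at 5.79, 6.03 and 5.93 in adult mutants against 8.93, 8.81 and 8.54 in mutant embryos, and at 5.84, 5.86 and 5.97 in adult wild types against 9.02, 8.95 and 8.83 in wild-type embryos. Adults were 7.18-fold lower in mutants (log2 difference -2.85, SE 0.12, adjusted p = 1.36e-09) and 8.22-fold lower in wild types (log2 difference -3.04, SE 0.12, adjusted p = 7.97e-10). A second Tet1 probe set (1429448_s_at) gave -2.13 in mutants and -2.03 in wild types. The remaining pair of Tet1 probe sets (1419897_at and 1419896_at) had no array above 3.09 and varied by at most 0.09 over the 12 arrays.

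Tet2 had the narrowest range of the tested members, 0.41 over 12 arrays. Its leading probe set (1455300_at) read 8.57, 8.53 and 8.62 in adult mutants against 8.55, 8.67 and 8.61 in mutant embryos, and 8.39, 8.48 and 8.43 in adult wild types against 8.58, 8.80 and 8.66 in wild-type embryos. Adult and embryonic mutants overlapped, and the log2 difference of -0.03 did not pass (95% interval -0.24 to 0.17, adjusted p = 0.739). Wild-type adults were lower by a small amount (log2 difference -0.24, SE 0.09, adjusted p = 0.0295). That call was lost after quantile normalisation (adjusted p = 0.0679), in a fit of the 6 wild-type arrays alone (adjusted p = 0.0507), and without adult wild type 1 or 3 or wild-type embryo 2 or 3 (adjusted p = 0.0567 to 0.122). The second probe set (1438781_at) gave -0.15 in mutants (adjusted p = 0.480) and -0.59 in wild types (adjusted p = 0.0149). It passed in mutants without adult mutant 3 (log2 difference -0.40, adjusted p = 0.0293) or with array weights (-0.37, adjusted p = 0.0393), and missed in wild types without adult wild type 2 (-0.52, adjusted p = 0.0554). Tet3 (1439324_at) lay between 2.41 and 2.82 on all 12 arrays, so that its expression could not be compared with this probe set.

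The 2 readers went opposite ways by their leading probe sets. Mbd3 (1417728_at) read 7.97, 7.99 and 8.52 in adult mutants against 9.40, 9.36 and 9.77 in mutant embryos, and 7.79, 7.81 and 8.06 in adult wild types against 9.18, 9.24 and 9.58 in wild-type embryos. It was 2.55-fold lower in mutant adults (log2 difference -1.35, SE 0.18, adjusted p = 3.14e-05) and 2.73-fold lower in wild-type adults (log2 difference -1.45, SE 0.18, adjusted p = 1.69e-05). Mbd2 (1417165_at) read 8.32, 8.65 and 8.76 in adult mutants against 7.55, 7.61 and 7.92 in mutant embryos, and 8.82, 8.83 and 8.71 in adult wild types against 7.62, 7.41 and 7.30 in wild-type embryos. It was 1.84-fold higher in mutant adults (log2 difference 0.88, SE 0.15, adjusted p = 0.000160) and 2.54-fold higher in wild-type adults (log2 difference 1.35, SE 0.15, adjusted p = 4.67e-06).

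The second Mbd2 probe set (1425803_a_at) disagreed in sign. It read 4.94, 5.61 and 6.80 in adult mutants against 7.40, 7.11 and 7.77 in mutant embryos, and 6.24, 5.96 and 6.72 in adult wild types against 7.03, 6.58 and 7.24 in wild-type embryos. Mutant adults were lower (log2 difference -1.64, SE 0.40, adjusted p = 0.00274) and wild-type adults did not pass (log2 difference -0.65, SE 0.40, adjusted p = 0.159). The fit shares 1 estimate of spread over all groups. Without adult mutant 3 the wild-type difference passed at an adjusted p of 0.0480, and with the 6 wild-type arrays alone at 0.04997. When both Mbd2 probe sets were averaged, the log2 difference was -0.38 in mutants (adjusted p = 0.170) and 0.35 in wild types (adjusted p = 0.205), so the direction of Mbd2 depends on the probe set.

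**Figure D2:**
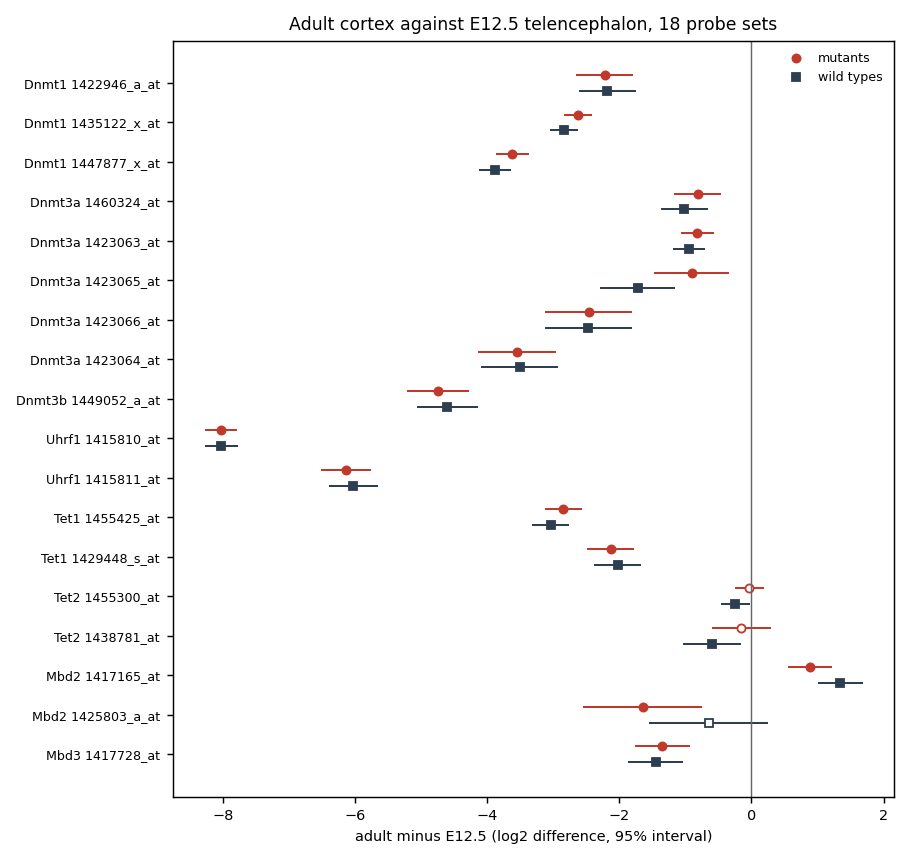
Adult minus E12.5 log2 difference (x axis) with its 95% interval for the 18 tested probe sets (rows), in mutants (circles) and wild types (squares); filled symbols passed an adjusted p of 0.05. All probe sets lie left of 0 except Mbd2 1417165_at, and the open symbols are both Tet2 probe sets in mutants and Mbd2 1425803_a_at in wild types.

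The mutation changed none of these genes past the test in either tissue. Of the 18 probe sets, 14 in 6 genes had a value over 4 on at least 3 adult arrays. The other 4 (both of Uhrf1, Dnmt3b 1449052_a_at and Dnmt3a 1423064_at) passed the filter through the embryos, lie low in both adult groups and could hardly show an adult difference. In adult cortex 0 of the 14, and 0 of the other 4, passed in the limma fit, where 5 of 20292 passed overall (0.0246%, and 1 with age pairs and crosses as a block). At an unadjusted p under 0.05 there were 2 members among 930 probe sets, and every member's adjusted p was 1. In E12.5 telencephalon 0 of 18 passed, where 13 passed overall (0.0641%, and 3 with the block), and 0 members were among the 920 probe sets with an unadjusted p under 0.05. The median member difference between mutant and wild type was 0.12 in adults (0.18 over the 14) and 0.01 in embryos, against 0.02 and -0.01 over all probe sets. None passed under any alternative processing that was run.

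The 95% intervals describe the precision of each probe set's difference on these arrays. They are not adjusted for the number of probe sets, and their spread is shared over adult and embryonic arrays. They therefore set no firm limit on a missed change in the mice. In adults the farther limit of the 95% interval ranged from 0.29 to 1.41 over the 14 probe sets, with a median of 0.53, and lay under 1, which is a doubling, for 12 of them. In embryos, where all 18 had values over 4, it ranged from 0.20 to 1.36, with a median of 0.47, and lay under 1 for 17. The tightest limits came from Tet1 1455425_at in adults and from Dnmt1 1435122_x_at in embryos. The widest came from Mbd2 1425803_a_at in both tissues.

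Nearest to a call in adult mutants were 1 probe set of Dnmt1 and 1 of Dnmt3a, neither of them the leading one. In limma the leading probe sets gave 0.10 for Dnmt1 (unadjusted p = 0.589) and 0.20 for Dnmt3a (unadjusted p = 0.219). Their adult groups overlapped. The Dnmt1 probe set 1435122_x_at read 8.02, 7.92 and 8.09 in adult mutants against 7.88, 7.78 and 7.73 in adult wild types (log2 difference 0.21, SE 0.09, unadjusted p = 0.0401). The Dnmt3a probe set 1423063_at read 7.19, 6.94 and 6.97 in adult mutants against 6.68, 6.76 and 6.82 in adult wild types (log2 difference 0.28, SE 0.10, unadjusted p = 0.0225). In each, the mutants lay above all wild types. In embryos the same probe sets gave 0.00 and 0.15, with overlapping groups for Dnmt1 at 10.59, 10.68 and 10.63 in mutants against 10.64, 10.65 and 10.60 in wild types.

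Non-overlapping groups were found for 4 member probe sets in adults, all with the mutants above the wild types. They were Dnmt3a 1423063_at, Dnmt1 1435122_x_at and 1447877_x_at, and Tet2 1455300_at. Mutants lay wholly above wild types for 6.19% of all probe sets and wholly below for 3.45%. In embryos no member had groups that did not overlap, where 3.19% of all probe sets had the mutants wholly above and 4.46% wholly below. Probe sets of 1 gene share a transcript, so that the 4 stand for 3 genes.

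**Figure D3:**
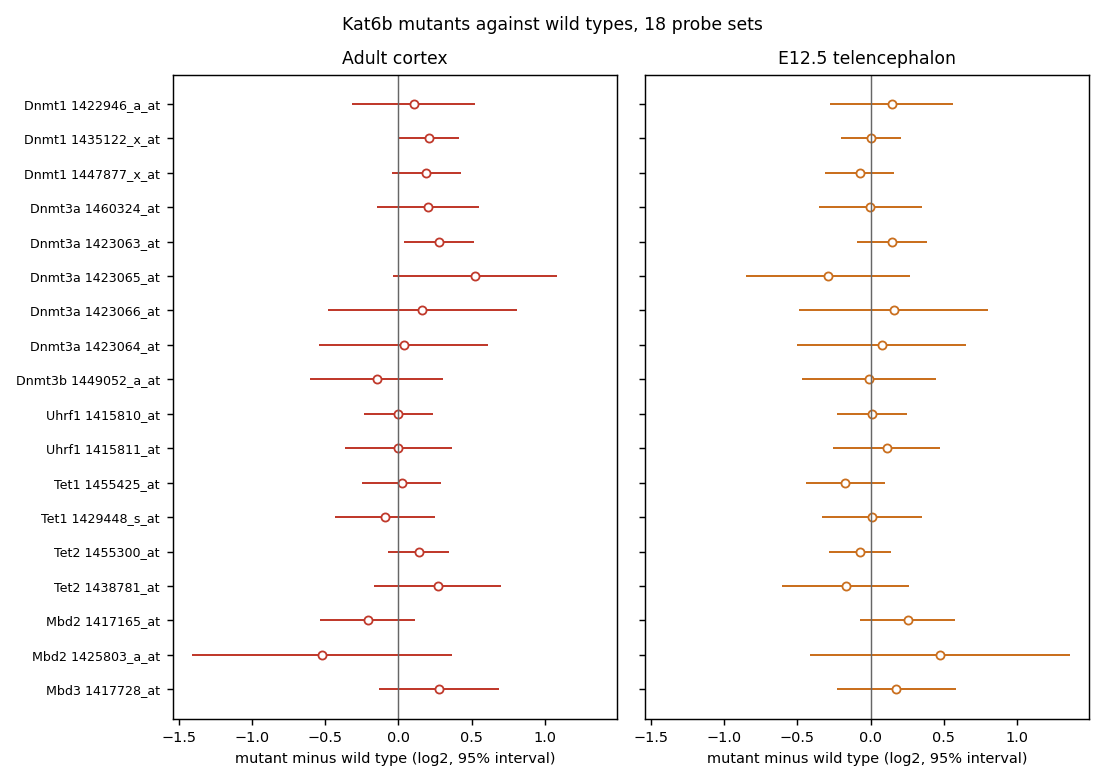
Mutant minus wild type log2 difference (x axis) with its 95% interval for the 18 tested probe sets (rows), in adult cortex (left) and E12.5 telencephalon (right); open symbols did not pass an adjusted p of 0.05. All symbols are open, with differences from -0.52 to 0.52 in adults and from -0.29 to 0.48 in embryos.

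The effect of the mutation was not shown to differ between the tissues for any member. For the adult effect minus the embryonic effect 0 of 18 passed in the limma fit, 4 of which lie low in both adult groups, with a lowest adjusted p of 0.923, where 3 probe sets passed overall (0.0148%, and 0 with the block). At an unadjusted p under 0.05 there were 2 members among 1086 probe sets, Dnmt3a 1423065_at (difference of effects 0.81, SE 0.36, unadjusted p = 0.0428) and Mbd2 1417165_at (difference of effects -0.46, SE 0.21, unadjusted p = 0.0453). This also means that the larger stage difference of Tet2 and the leading Mbd2 probe set in wild types was not shown to differ from that in mutants.

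Some adult member values moved with the actin control for the state of the RNA. The probe sets given here were chosen after their values were seen. Dnmt3a 1423065_at read 7.34, 6.92 and 6.46 on adult mutants 1, 2 and 3, whose actin gap between 3′ and 5′ probes was 1.91, 1.47 and 1.09, against 6.25, 6.26 and 6.64 in adult wild types, whose gap was 1.13, 1.13 and 1.06. On this probe set the 3 mutants ranked as their gaps did. Mbd2 1425803_a_at ran the other way, lowest on mutant 1 at 4.94 and highest on mutant 3 at 6.80. Not every member ranked by the gap in either direction. On adult mutants 1, 2 and 3 the leading Dnmt3a probe set read 8.55, 8.81 and 8.76, and the leading Dnmt1 probe set 8.60, 8.13 and 8.66. Without adult mutant 1 the adult mutant minus wild type difference was 0.31 for Dnmt3a 1423065_at and -0.10 for Mbd2 1425803_a_at, against 0.52 and -0.52 with all arrays. Without adult mutant 3 the difference was 0.75 for the Dnmt3a probe set and -1.03 for the Mbd2 probe set. The part of RNA state in these values was not tested.

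**Figure D4:**
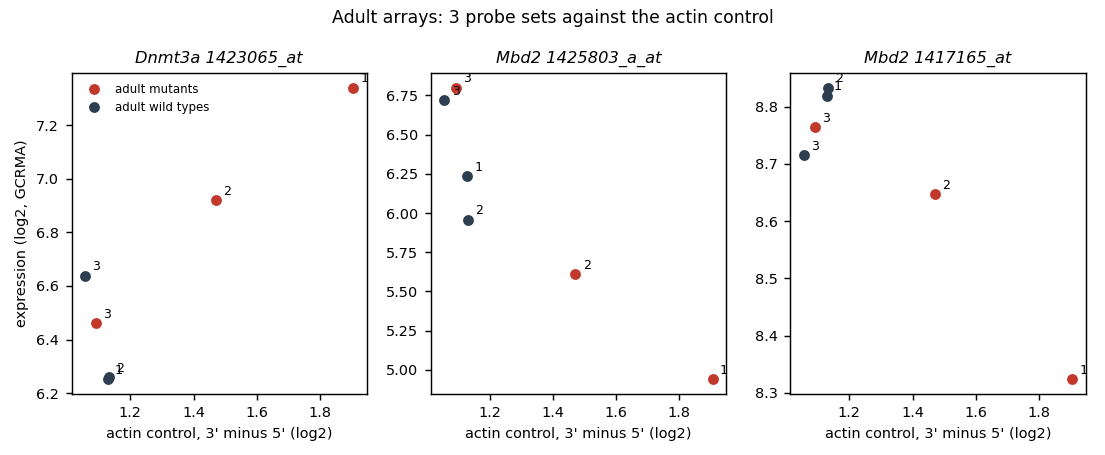
Log2 expression (y axes, GCRMA values) of 3 probe sets on the 6 adult arrays against the gap between 3′ and 5′ actin control probes (x axis, log2); points are single arrays numbered by replicate, with mutants and wild types in separate colours. Adult mutants 1 and 2, with gaps of 1.91 and 1.47, stand highest for Dnmt3a 1423065_at and lowest for both Mbd2 probe sets. The 3 probe sets were chosen after their values were seen.

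Other genes listed as related to DNA methylation, some of them only indirectly, followed the stage in a similar way. Of 33 such genes listed, 26 were measured, and 19 were lower and 5 higher in mutant adults than in mutant embryos, and 20 lower and 4 higher in the wild types. Over all tested probe sets, 43.0% were lower and 36.5% higher in mutant adults, and 43.5% lower and 35.7% higher in wild-type adults. The median log2 difference of the 26 was -1.19 in mutants and -1.25 in wild types, against -0.13 and -0.14 over all tested probe sets. Hells, a remodeller of the SNF2 family needed for normal DNA methylation, gave -8.27 in mutants and -8.50 in wild types, and Cdca7, which works with it, gave -7.63 and -7.39. Adult values of both lay between 2.23 and 3.11, so both passed the filter only through the embryos and their direction was close to fixed. Trim28, a corepressor that helps to keep methylation at imprinted loci, gave -2.28 and -2.43.

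The 5 genes that were higher in mutant adults were Zbtb4, Zbtb38, Neil1, Gadd45b and Ogt, and Ogt did not pass in wild types (log2 difference 0.31 in mutants and 0.08 in wild types). Ogt was no longer among them after median centring, which left 4. Zbtb4, a zinc finger protein that binds methylated CG sites, had the largest rise of these and read 10.25, 10.36 and 10.35 in adult mutants against 5.04, 5.32 and 5.66 in mutant embryos (log2 difference 4.98, adjusted p = 2.46e-09). It gave 5.05 in wild types. Mbd4, a glycosylase with a methyl-CpG-binding domain, was lower in adults (log2 difference -1.29 in mutants and -1.52 in wild types). None of the 26 passed between mutants and wild types in either tissue, with differences of -0.29 to 0.35 in adults and -0.52 to 0.51 in embryos.

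The partners of Mbd2 and Mbd3 in NuRD were mostly lower in adults too. Of 14 listed, 13 were measured, and 10 were lower and 2 higher in adults in each genotype. The shares over all tested probe sets were 43.0% lower and 36.5% higher in mutants, and 43.5% and 35.7% in wild types. Hdac1, a histone deacetylase, read 7.51, 7.35 and 7.17 in adult mutants against 11.01, 11.00 and 10.80 in mutant embryos (log2 difference -3.59, and -3.65 in wild types). Its paralogue Hdac2 gave -2.14 in mutants and -2.02 in wild types, and Gatad2a, a scaffold subunit, gave -2.32 and -2.52. The exceptions were both chromodomain remodellers: Chd5, known for its expression in neurons, gave 5.62 in mutants and 5.27 in wild types, and Chd3 gave 0.72 and 0.67. Chd5 stood at 4.335, its lowest value, on mutant embryos 2 and 3 and wild-type embryos 2 and 3. The size of its difference is therefore uncertain. Chd4, the remodeller of the same family that is broadly expressed, gave -1.43 and -1.53. Again none of the 13 passed between mutants and wild types.

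Cell type lists show what else differed between the tissues. All 24 measured genes of DNA replication and proliferation were lower in adults in each genotype, with median log2 differences of -6.09 in mutants and -6.34 in wild types, and all 10 genes of radial glia and progenitors were lower. All 8 markers of mature neurons, all 7 of oligodendrocytes, all 6 of astrocytes and all 6 of microglia were higher in adults. Some genes of these lists passed the filter through 1 tissue alone, so that their direction was close to fixed. Examples are Thy1, at 2.28 to 2.68 in embryos, and Nes, at 2.23 to 2.31 in adults. The counts and medians of the lists include such genes. The replication list had a mean level of 4.23 to 4.53 on adult arrays against 10.65 to 10.73 on embryonic arrays. In that list, 15 of the 24 genes had fewer than 3 adult arrays over 4 and 9 stayed above it. The 15 therefore passed the filter only with the embryos. Top2a, which untangles replicated DNA, averaged 2.19 in adult mutants and 2.19 in adult wild types, and Mki67, a marker of cycling cells, 2.26 and 2.23. Pcna, the sliding clamp of the replication fork, remained at 10.44 to 10.83 in adults (log2 difference -3.19 in mutants and -2.96 in wild types), and Fen1, a nuclease that trims replication intermediates, at 9.50 to 10.19 (-1.58 and -1.40). Uhrf1, Hells, Cdca7 and Dnmt3b also had adult values under 4, while Dnmt1, Dnmt3a, Tet1, Tet2, Mbd2 and Mbd3 had leading probe sets between 5.79 and 8.83 on every adult array. The embryonic tissue also carried blood and choroid plexus markers. All 3 measured erythroid genes were lower in mutant adults than in mutant embryos and 2 of 3 in wild types, with Hbb-y, an embryonic globin, at 2.19 in adults of each genotype against 15.4 in mutant embryos and 15.5 in wild-type embryos. Of 6 markers of cortical hem and choroid plexus, 5 were lower in mutant adults and 6 in wild-type adults. The part of these cell types in the members' stage differences was not tested.

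**Figure D5:**
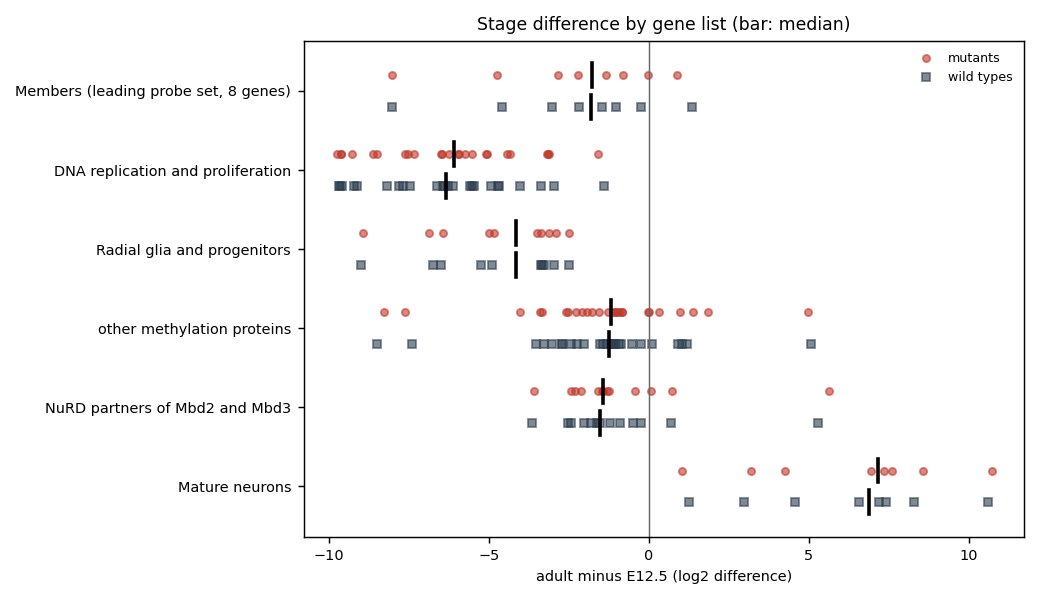
Adult minus E12.5 log2 difference (x axis) of single genes in the members and in 5 gene lists (rows), in mutants (circles) and wild types (squares), with black bars at the medians. The replication list lies wholly left of 0 with medians of -6.09 in mutants and -6.34 in wild types, and mature neuron markers lie wholly right of 0.

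None of the measured genes of the cell type lists passed between mutants and wild types in either tissue, but some lists leaned one way. All 7 oligodendrocyte genes had negative differences in adult mutants, with a median of -0.33, and their mean level was 9.47, 9.65 and 9.44 in adult mutants against 9.92, 9.60 and 9.93 in adult wild types. The 6 markers of cortical hem and choroid plexus averaged 6.20 on adult mutant 3, and 4.53 to 4.73 on the other adult mutants and 4.48 to 4.83 on adult wild types. The raised mean came mostly from Ttr, a transport protein that choroid plexus makes in quantity, at 15.2 on adult mutant 3 and 6.79 to 9.18 on the other adult arrays. It came partly from Folr1 at 4.19 and from Clic6 at 4.77, which read 3.74 to 4.37 on the other adult arrays. Wnt3a, Msx1 and Otx2 were not raised there. In embryos, all 5 ventral telencephalon markers had negative differences in mutants (median -0.86), all 6 microglia genes had positive ones (median 0.18), and Gfap, an intermediate filament gene of astrocytes, gave 2.11 (adjusted p = 0.165). The part of these lists in the member values was not tested.

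The genes whose level over the 12 arrays was most like that of a member were sought among 11441 genes by Pearson's r, which here reflects above all the stage that the arrays share. For Uhrf1 they were Cdc6, Cdca3 and Bub1, with r of 1.000 each. For Dnmt1 they were Pcbp4, Alyref and Aimp1, with r of 0.997 to 0.998, for Dnmt3a Lhfpl2, Rpain and Ifi30, with r of 0.979 to 0.988, and for Dnmt3b Nek2, Kdm4a and Gnpat, with r of 0.998 to 0.999. For Tet1 they were F2r, Myt1 and Shroom3, with r of 0.999 each, and for Tet2, which varied little with stage, Tor1aip1, Kmt2a and Lrp10, with r of 0.886 to 0.926. For Mbd2 they were Vps29, Suclg1 and Hibadh, with r of 0.981 to 0.986, and for Mbd3 H13, Vps72 and Ost4, with r of 0.992 to 0.993. Only for Tet2 did no gene reach an r of 0.95.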

How the data were processed

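The arrays hold 1 colour per sample, 12 in all. The deposited values are log2 expression values per probe set and array, made with GCRMA per the submitters' processing notes; no version or settings came with it. The protocol in the labels describes amplification of total RNA in a pair of cycles and a biotin label, which can favour the 3′ ends of transcripts. Values were used as deposited. Arrays carry no counts, and their number limits the precision.

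Gene names came from the platform's own annotation, and for 34754 probe sets the gene ID gave the current symbol (RefSeq, GRCm38.p6). Of 45101 probe sets, 34945 had 1 symbol and 932 had several, none of these with a member. Probe sets with 1 symbol and a log2 value over 4 on at least 3 arrays were tested, 20292 in 11449 genes. Each was fitted with limma 3.58.1 in R 4.3.3 (lmFit and eBayes, 12 arrays, 4 group means), p-values were adjusted by Benjamini-Hochberg over all 20292, and an adjusted p under 0.05 was a call. All adjusted and unadjusted p-values given are limma's, standard errors (SE) are moderated, and intervals are 95% intervals. The fit was tested on simulated data. Nothing says how far replicates are independent beyond mouse numbers and parents in the labels, so p-values measure the spread between these arrays.

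Mutants were set against wild types within each tissue, the 2 effects against each other, and adults against embryos within each genotype. The named genes were every probe set of the members and of Kat6b, up to 4 genes of each list with the lowest p between wild-type stages, and for each member the 3 genes with the highest r; further genes of the lists (Zbtb38, Neil1, Gadd45b, Ogt, Mbd4, Chd3, Chd4, Pcna, Fen1, Ttr, Wnt3a and Gfap) were named after their values were seen. A gene of a list, or a member called leading, is represented by the probe set whose mean over the 12 arrays was highest. The members and the lists were chosen with earlier results of these data known.

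Pairing came from the parents of the embryos and the ages of the adults in the labels. Deviations from group means correlated at 0.454 for the embryos of the first cross, 0.134 to 0.188 within the second cross, and -0.304 to -0.226 across crosses. Adult age pairs correlated at 0.188, 0.006 and 0.217, while unmatched adults correlated at -0.275 to 0.186, which left the adult pairing unclear. The alternatives changed the low-value filter, how probe sets stand for a gene, array scaling, array weights, the variance model, the block and which arrays entered the fit.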

Additional observations from a re-analysis of the deposited data

Results flagged for a closer look

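The effect of the mutation on the second Kat6b probe set differed between the tissues by a test of that difference in limma (adult effect minus embryonic effect 2.42 on the log2 scale, SE 0.22, adjusted p = 0.00671). It read 2.19 on all 3 adult mutant arrays against 2.24, 2.66 and 2.87 in adult wild types, and 2.21, 2.21 and 2.19 in mutant embryos against 4.80, 5.24 and 5.03 in wild-type embryos. The floor of 2.19 bounds the adult difference, and only the 3 wild-type embryos had values over 4. The leading Kat6b probe set, which was above 6 on every array, did not pass the same test (1.84, SE 0.42, adjusted p = 0.585).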

How the results depend on the processing

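No member was called between mutants and wild types, or for the difference between tissues, under any of the alternatives run. In the stage contrasts, leaving out 1 array gave 16 to 17 called member probe sets in mutants and 16 to 18 in wild types, against 16 and 17 with all arrays. Without probe sets whose suffix marks probes shared between transcripts, 10 of the members were called in mutants and 12 in wild types, since fewer were tested. The mean of both Mbd2 probe sets reversed its mutant stage difference to -0.38. Under the fits with 1 value per gene, members are counted as genes, of which 7 to 8 were called in wild types and 6 to 7 in mutants. Quantile normalisation moved the median stage difference of all probe sets in mutants to -0.19, against -0.13 as deposited.

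Counts over all probe sets moved more. Between adult mutants and wild types, 5 were called, and the count was 8 without shared-probe sets, 12 with array weights, 1 with a trended robust variance, 1 with the replicate block, 0 with the 6 adult arrays alone and 1 without the first cross, and 0 to 4 with 1 array left out. Between mutant and wild-type embryos 13 were called, and the count was 4 with 1 probe set per gene, 4 with the mean of probe sets, 8 without shared-probe sets, 66 with array weights, 3 with the replicate block, 1 with the 6 embryonic arrays alone and 36 without the first cross, and 6 to 16 with 1 array left out. For the difference between tissues 3 were called, and the count was 6 with no filter, 1 with a filter at 5, 0 with 1 probe set per gene, 1 with their mean, 0 without shared-probe sets, 12 with array weights, 1 with a trended robust variance and 0 with the replicate block, and 1 to 6 with 1 array left out. The stage calls numbered 9357 and 9396 in mutants and 9314 and 9367 in wild types when a gene was the unit, against 16123 and 16085 probe sets. The block changed no member's call. The causes of these changes were not tested, other than fewer units tested where genes or fewer probe sets were used. Values near the floor of 2.19 limit what can be said of Uhrf1, Dnmt3b, Tet3 and the weaker Tet1 probe sets in adults.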
